A study of Mus musculus with 10 samples.

Results

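The genes for the nuclear-encoded subunits of the respiratory chain and of ATP synthase were followed in right atria of adult mice. They were taken by symbol, as every gene of the deposited table whose name begins with Nduf and one of the letters a, b, c, s or v and a number, is Sdha, Sdhb, Sdhc or Sdhd, or begins with Uqcr, with Cox4i, Cox5, Cox6, Cox7 or Cox8, or with Atp5. This gave 84 of the 23337 genes of the table: 37 of complex I (NADH dehydrogenase), 4 of complex II (succinate dehydrogenase), 8 of complex III (cytochrome bc1), 18 of complex IV (cytochrome c oxidase) and 17 named for complex V (ATP synthase). Of these, 78 had enough reads to be tested.

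RNA of right atria was sequenced from 4 mice with the genotype label Control and 6 mice with the genotype label R26Cre driven TBX5 removal, 1 library a mouse, to compare gene expression with and without TBX5, a T-box transcription factor of the heart. According to the protocol, a Cre recombinase that tamoxifen activates, driven by the R26 promoter that is active in all tissues, removes exon 3 of Tbx5. Tamoxifen was given at 0.167 mg a day for 3 days and the atria were taken 1 week later, in mice of strain mix and labelled age 8 to 10 weeks, while the protocol gives 6 to 8 weeks. Which alleles the control mice carried is not given in the sources used here, and the protocol is the same for both groups, so that both are described as having received tamoxifen. The 6 mice, whose titles read TBX5 KO, are called the Tbx5 mutant group or mutant mice here, as a name for their label.

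The 5 complexes sit in the inner mitochondrial membrane. Complexes I and II pass electrons from NADH and from succinate to ubiquinone, complex III passes them on to cytochrome c and complex IV to oxygen, while complexes I, III and IV pump protons that drive ATP synthase. Most subunits are encoded in the nucleus, some by more than 1 gene with a heart and muscle isoform and a more widely used one, and the heart is among the tissues richest in these transcripts. The subunits encoded in mitochondrial DNA were not analysed here.

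Libraries held 5703775 to 7095141 counts. Tbx5 had 215, 198, 224 and 184 CPM (counts scaled to library size) in M1, M2, F1 and F2 of the control group, and 275, 417 and 475 CPM as the lowest, median and highest of the 6 mutant mice, so that the targeted gene ran against the labels (log2 fold change 0.94 ± 0.15 SE, edgeR adjusted p = 0.000495). Counts were taken per gene, so reads from transcripts that lack exon 3 are included. The names of both groups therefore stand for their labels throughout. In the control mice Xist and Ddx3y also ran against the labelled sex: the mice labelled male had 7850 and 10149 Xist counts and 0 of Ddx3y. In mutant M3 the ribosomal RNA gene Rn45s took 38.9% of counts, against 0.268% to 1.49% in the other libraries. The defining markers of atrial cardiomyocytes were present, but their summed level was lower in the mutant group (17732 to 33551 CPM) than in the control group (41423 to 46938 CPM), and all 5 were called lower.

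The subunit transcripts were higher in the mice labelled TBX5 KO. Of 78 members tested, 44 were called higher at an adjusted p under 0.05 (edgeR quasi-likelihood test, adjusted over all 13084 genes tested) and 0 lower. Over all genes tested, 16.3% were called higher and 15.0% lower. The members' median log2 fold change was 0.39, beside −0.005 over all genes tested, and 76 of 78 values were positive. Changes were small: 11 members passed a fold change over 1.5 as well, all of them higher, where 8.54% of all genes tested did so upwards and 7.16% downwards. DESeq2 called 51 members higher and 0 lower.

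Every mutant mouse lay above every control mouse for 30 of the 78 members, and for 11.7% of all genes tested. The share of all reads that fell on the 84 members, with Rn45s left out, was 2.27%, 2.70%, 2.64% and 3.12% in control M1, M2, F1 and F2 and ranged from 3.05% to 4.15% in the mutant mice. The group ranges overlapped, since mutant F1 lay below control F2. In a two-sided exact permutation test, which used each of the 210 ways to split the mice, 52 of the 78 members had an unadjusted p under 0.05, beside 40.1% of all genes tested, and the smallest p this test can give is 0.00476.

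**Figure D1:**
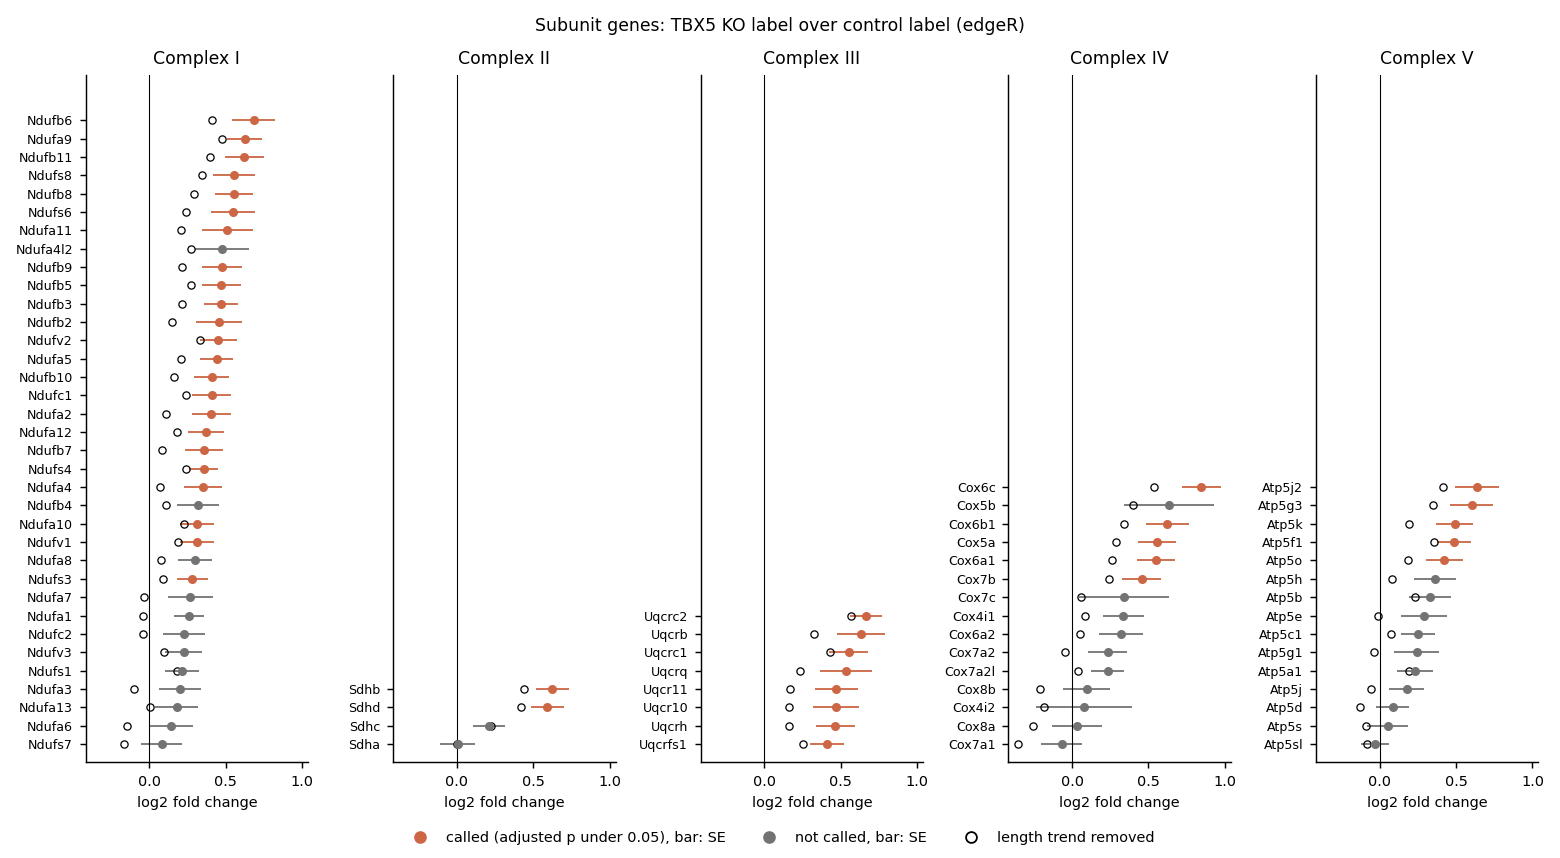
Log2 fold change (TBX5 KO label over control label) of 77 of the 78 tested members by complex, with filled points for the edgeR estimate, bars for its SE and open points for the estimate after each library's trend on transcript length was removed. All 8 complex III members are called higher, and most open points lie nearer to 0 than the filled ones.

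These are short transcripts, with a median principal transcript of 786 bases over the members tested and 2905 bases over all genes tested, and the libraries differed in how counts ran with length. The Spearman correlation of a library's deviations from the gene means with transcript length was between 0.12 and 0.32 in the 4 control libraries and between −0.37 and 0.04 in the 6 mutant libraries. The median deviation of the members from their control mean, in log2 CPM, followed the same order within both groups, with 1 pair of neighbours exchanged in each. In the control group it was lowest in M1 (−0.24), which had the highest length correlation, and highest in F2 (0.20), which had the lowest. In the mutant group it was highest in M3 (0.66) and M2 (0.52), whose length correlations were −0.37 and −0.33, and lowest in F1 (0.17), whose correlation was 0.01.

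The length trend was removed per library in a second fit. The members' median log2 fold change was then 0.19, with 20 of 78 called higher and 1 lower (Cox7a1), against 15.1% and 12.9% of all genes tested. All 20 were among the 44, and 0 passed a fold change over 1.5. The trend was taken from all genes, and among the 78 members themselves length and log2 fold change had a Spearman correlation of −0.10 before the removal and 0.30 after it, so that in the second fit the shorter members had the lower values. Genes under 1000 bases were higher in the mutant group in general: 264 of the 852 tested, 31.0%, were called higher in the fit without removal, with a median log2 fold change of 0.24. Among members, 27 of 50 under 1000 bases and 17 of 28 longer ones were called higher, with medians of 0.42 and 0.34. Whether the trend comes from the tissue or from the RNA and libraries cannot be told apart here, since it differs between the groups.

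**Figure D2:**
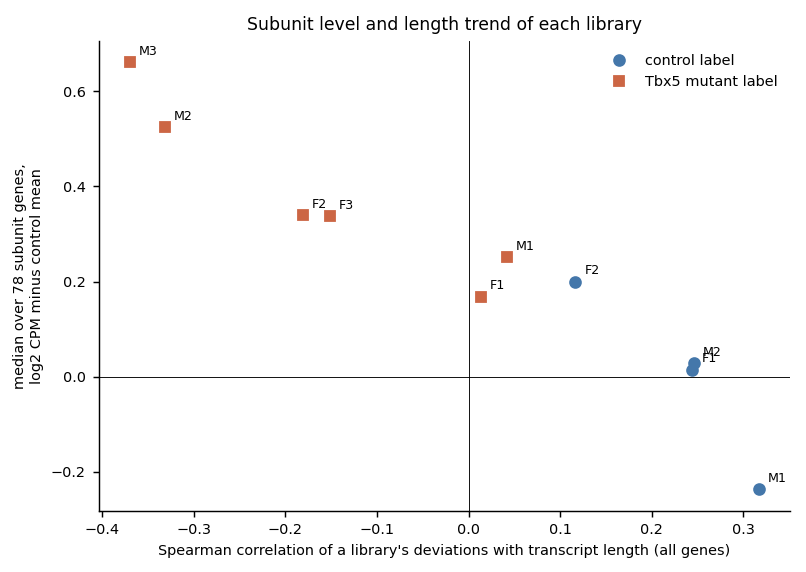
Median over the 78 tested members of log2 CPM minus the control mean (vertical axis) against the Spearman correlation of each library's deviations with transcript length over all genes (horizontal axis), 1 point a library. The median falls from 0.66 in mutant M3, at a correlation of −0.37, to −0.24 in control M1, at 0.32.

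Complex I is the largest of the chain and has 7 core subunits encoded in the nucleus, which carry its flavin and iron-sulfur centres, and a shell of accessory subunits. Of 36 members tested, 24 (66.7%) were called higher and 0 lower, with a median log2 fold change of 0.39 and a range of 0.08 to 0.68. Over all genes tested 16.3% were called higher, and 31.0% of those under 1000 bases. By family, 9 of 10 Ndufb genes were called higher, and 7 of 14 Ndufa genes. With the length trend removed, 8 of the 36 (22.2%) were called higher, with a median of 0.19, beside 15.1% of all genes tested. Among them were 4 of the 10 Ndufb genes and 1 of the 14 Ndufa genes, whose medians in that fit were 0.21 and 0.09. A test of the difference between the families was not made. Ndufs5 had 0 counts in all libraries, and 41.2% of the 50-base windows of its transcript also occur in other genes. The part of shared sequence in the missing counts of Ndufs5 was not tested.

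Ndufb6, an accessory subunit of the membrane arm, had 63.4, 80.4, 74.9 and 95.8 CPM in control M1, M2, F1 and F2 and 99.4, 132 and 158 CPM as the lowest, median and highest of the mutant mice. The groups did not overlap, and the log2 fold change of 0.68 ± 0.14 SE (edgeR adjusted p = 0.00275) was the largest of the complex. Ndufa9, an accessory subunit at the junction of the arms, went from 243, 275, 294 and 323 CPM in the control mice to 396, 411 and 537 CPM in the mutant mice, again with no overlap. Its log2 fold change was 0.62 ± 0.12 (edgeR adjusted p = 0.00132) and 0.48 with the length trend removed (adjusted p = 0.00184 by the same test), the largest of the complex in that fit. Ndufb11, which is encoded on the X chromosome, had 98.3, 129, 109 and 130 CPM and then 150, 171 and 234 CPM, also without overlap.

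The log2 fold changes of the core subunits ran from 0.08 to 0.56, and a test of the difference between them was not made. Ndufs8, a ferredoxin-like subunit that carries iron-sulfur centres, had 136, 171, 169 and 200 CPM in the control mice and 212, 227 and 316 CPM in the mutant mice (log2 fold change 0.56 ± 0.14, edgeR adjusted p = 0.00776). Ndufv2 had a log2 fold change of 0.45 ± 0.12 (edgeR adjusted p = 0.0131), and both were still called with the length trend removed, at 0.34 and 0.33. Ndufv1, which binds NADH, at 0.31, and Ndufs3, at 0.28, were called in the first fit but not in the second. For Ndufs3, 35.8% of transcript windows occur in other genes.

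Ndufs1, the largest subunit, and Ndufs7 were not called. Ndufs1 had 543, 570, 690 and 622 CPM in the control mice and 640, 682 and 816 CPM in the mutant mice, with overlapping groups (log2 fold change 0.21 ± 0.11, edgeR adjusted p = 0.15). Ndufs7 had 117, 156, 152 and 188 CPM and then 135, 163 and 195 CPM. Its log2 fold change of 0.08 ± 0.14 was the smallest of the complex, and was −0.16 with the length trend removed.

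**Figure D3:**
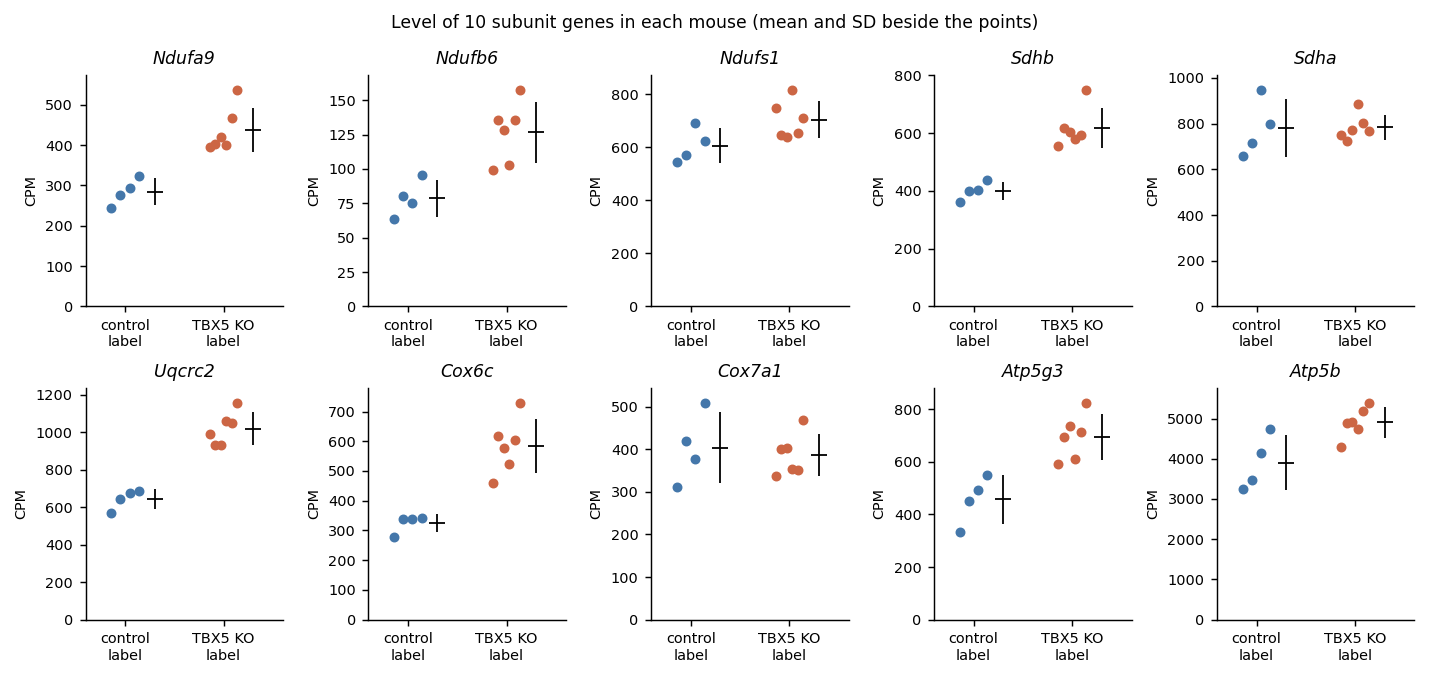
CPM of 10 members in each mouse, with the group mean and SD beside the points, on axes that start at 0. The groups do not overlap for Ndufa9, Ndufb6, Sdhb, Uqcrc2, Cox6c and Atp5g3, and overlap for Ndufs1, Sdha, Cox7a1 and Atp5b.

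Complex II split. Sdhb and Sdhd were called higher, while Sdha and Sdhc were not, beside 16.3% called higher over all genes tested. Sdhb, the iron-sulfur subunit (chr4:140961203-140979193, forward strand, GENCODE M21 on GRCm38), had 360, 400, 402 and 436 CPM in control M1, M2, F1 and F2 and 555, 599 and 751 CPM as the lowest, median and highest of the mutant mice. Sdhd, a membrane anchor (chr9:50596357-50603812, reverse strand), had 222, 280, 284 and 293 CPM and then 367, 395 and 475 CPM. Neither gene's groups overlapped, and the log2 fold changes were 0.62 ± 0.11 for Sdhb (edgeR adjusted p = 0.000701) and 0.59 ± 0.11 for Sdhd (edgeR adjusted p = 0.00108).

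Sdha, the flavoprotein that oxidizes succinate (chr13:74322254-74350280, reverse strand), had 657, 716, 949 and 801 CPM in the control mice and 723, 770 and 884 CPM in the mutant mice. The mutant values lay inside the control range, and the log2 fold change was 0.01 ± 0.11 (edgeR adjusted p = 0.979). Sdhc, the other anchor (chr1:171127165-171150603, reverse strand), had 272, 301, 332 and 349 CPM and then 330, 354 and 432 CPM (log2 fold change 0.21 ± 0.10, edgeR adjusted p = 0.138). The calls were the same with the length trend removed: 0.44 and 0.42 for Sdhb and Sdhd, both called, and 0.00 and 0.23 for Sdha and Sdhc, neither called. Sdhd and Sdhc lay nearer to each other in that fit than in the first. The transcripts of Sdhb and Sdhd have 1142 and 1231 bases and those of Sdha and Sdhc 2900 and 3171 bases. Per kilobase of transcript, the control means were 350, 219, 269 and 98.9 CPM for Sdhb, Sdhd, Sdha and Sdhc, and the mutant means were 540, 331, 270 and 114 CPM. A test of the difference between the changes of these genes was not made.

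All 8 members of complex III were called higher, beside 16.3% of all genes tested and 31.0% of those under 1000 bases. The median transcript of the 8 has 541 bases. Their log2 fold changes were from 0.41 to 0.66, with a median of 0.50. With the length trend removed all 8 values were still positive, 4 were called higher, beside 15.1% of all genes tested, and the median was 0.24. The 4 are Uqcrc2, Uqcrc1, Uqcrb and Uqcrfs1, which was at the threshold (edgeR adjusted p = 0.0499).

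Uqcrc2, a core subunit of the matrix side, had 570, 644, 676 and 685 CPM in the control mice and 930, 1021 and 1157 CPM in the mutant mice. The gap between the groups was wider than the range within the control group, and the log2 fold change was 0.66 ± 0.10 (edgeR adjusted p = 0.000386), or 0.57 with the length trend removed, the largest of all members in that fit. Uqcrc1, the other core subunit, had 361, 385, 490 and 541 CPM and then 550, 668 and 717 CPM (log2 fold change 0.55 ± 0.13, edgeR adjusted p = 0.00547). Uqcrfs1, the Rieske iron-sulfur protein that passes electrons towards cytochrome c1, had 374, 453, 460 and 482 CPM and then 538, 558 and 717 CPM, also without overlap (log2 fold change 0.41 ± 0.11).

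Uqcrb, a small subunit beside the ubiquinone site, had a log2 fold change of 0.63 ± 0.16 (edgeR adjusted p = 0.00765), and 43.2% of its transcript windows occur in other genes, so that its level is uncertain. Uqcrq had 101, 169, 124 and 158 CPM in the control mice and 153, 200 and 258 CPM in the mutant mice, and its groups overlapped (log2 fold change 0.53 ± 0.17). Cyc1, the cytochrome c1 subunit of the same complex, is not matched by the rule. It had a log2 fold change of 0.67 ± 0.13 (edgeR adjusted p = 0.00192), beside 0.66 for Uqcrc2, and was called with the length trend removed (0.53).

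Complex IV had the widest range of log2 fold changes among the complexes. Of 15 members tested, 5 (33.3%) were called higher and 0 lower, from −0.07 to 0.85. Over all genes tested 16.3% were called higher, and 31.0% of those under 1000 bases. Whether the complex differs from these shares was not tested. Cox6c, a small accessory subunit, had 280, 340, 340 and 343 CPM in the control mice and 460, 591 and 729 CPM in the mutant mice. The groups did not overlap, and its log2 fold change of 0.85 ± 0.13 (edgeR adjusted p = 0.00028) was the largest of all 78 members. For Cox6c 21.1% of transcript windows occur in other genes. Cox6b1, which links the monomers of the oxidase, had 336, 439, 382 and 459 CPM and then 500, 580 and 784 CPM (log2 fold change 0.62 ± 0.14, edgeR adjusted p = 0.00495). Cox5a had 188, 231, 237 and 291 CPM and then 294, 353 and 407 CPM (0.56 ± 0.13, edgeR adjusted p = 0.00479). These 3 were also the members of the complex called higher with the length trend removed (20%, beside 15.1% of all genes tested).

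Cox4i1, the main form of the subunit through which the enzyme senses ATP, had 640, 825, 756 and 961 CPM in the control mice and 841, 1016 and 1185 CPM in the mutant mice. The groups overlapped, and the log2 fold change of 0.34 ± 0.13 was not called (edgeR adjusted p = 0.0669). Cox5b had the widest scatter, with 23.9 to 66.5 CPM in the control group and 42.6 to 116 CPM in the mutant group, and 25.9% of its windows occur in other genes. Cox7c, with 5 to 18 counts a library, has 53.0% of its windows in other genes. Cox8c had 0 counts in all libraries, and Cox6b2 and Cox7b2, whose known main site is the testis, had at most 7 and 4 counts.

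The heart and muscle isoforms of complex IV were not called. Cox7a1 had 312, 419, 377 and 509 CPM in the control mice and 336, 377 and 469 CPM in the mutant mice, with the mutant values inside the control range (log2 fold change −0.07 ± 0.14, edgeR adjusted p = 0.732). With the length trend removed it was called lower, at −0.35 (edgeR adjusted p = 0.0192), in the fit in which shorter members had lower values. Its transcript has 393 bases. Cox8b had 192, 252, 227 and 267 CPM and then 180, 234 and 336 CPM (log2 fold change 0.10 ± 0.15). Cox6a2 had 475, 547, 609 and 718 CPM and then 611, 704 and 965 CPM (0.32 ± 0.15, edgeR adjusted p = 0.108). Of the widely used counterparts, Cox6a1 was called higher (0.55 ± 0.12, edgeR adjusted p = 0.00459), and Cox7a2 (0.23 ± 0.13) and Cox8a (0.03 ± 0.17) were not. With the length trend removed none of the 3 was called higher.

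Within a pair, the share of reads does not depend on library scaling. Cox7a1 took 56.2%, 58.0%, 57.7% and 62.4% of the reads of Cox7a1 and Cox7a2 in control M1, M2, F1 and F2, and 49.0% to 56.9% in the mutant mice. The means were 58.6% ± 2.67 (SD, n = 4) and 53.8% ± 3.11 (SD, n = 6), and the ranges overlapped only through control M1. Cox6a2 took 91.8% to 92.9% of its pair in the control mice and 89.9% to 92.9% in the mutant mice. Cox8b took 75.3% to 81.1% and 74.2% to 81.6%. Cox4i1, Cox6b1 and Ndufa4 each took at least 98.6% of the reads of their pairs in all mice, so that Cox4i2 (2.06 to 7.35 CPM), Cox6b2 and Ndufa4l2 added little. Ndufa4, now counted with complex IV by function but matched here with complex I by name, was called higher in the first fit (0.35 ± 0.13, edgeR adjusted p = 0.0491) and not with the length trend removed (0.07). Ndufa4l2, known for its induction by low oxygen, had 3.76 to 7.31 CPM and 7.57 to 8.66 CPM and was not called (0.48 ± 0.18, edgeR adjusted p = 0.0561), although its groups did not overlap.

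**Figure D4:**
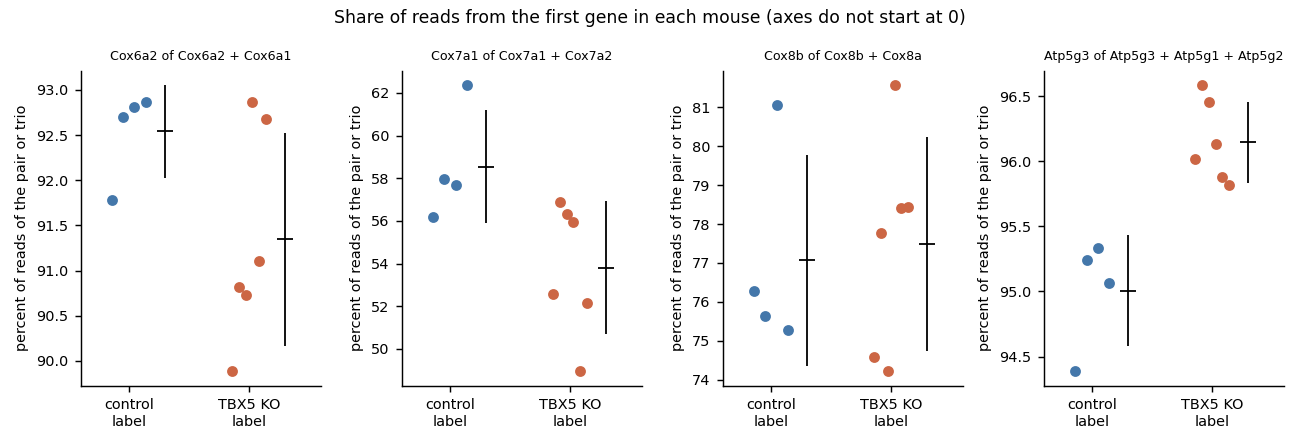
Percent of the reads of a pair or trio of genes that came from the first gene, in each mouse, with the group mean and SD; the axes do not start at 0. Cox7a1 has a mean share of 58.6% in the control mice and 53.8% in the mutant mice, and the groups do not overlap for Atp5g3 (94.4% to 95.3% and 95.8% to 96.6%).

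ATP synthase has a catalytic F1 head, with alpha, beta, gamma, delta and epsilon subunits, on a stalk and a membrane part with a ring of c subunits. Of 15 members tested, 5 (33.3%) were called higher and 0 lower, with a median log2 fold change of 0.29. Over all genes tested 16.3% were called higher, and 31.0% of those under 1000 bases. With the length trend removed 3 members (20%) were called higher, beside 15.1% of all genes tested. Whether the complex differs from these shares was not tested. None of the 5 F1 genes was called, with log2 fold changes from 0.08 to 0.33, while 5 of 8 tested genes of the stalk and membrane part were. The other 2, Atp5s and Atp5sl, which share the name but are not structural subunits of the enzyme, had 0.05 and −0.03. After removal of the length trend, 0 of the 5 F1 genes and 3 of the 8 stalk and membrane genes were called higher. Their medians in that fit were 0.07 and 0.19. A test of the difference between these parts was not made.

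Per kilobase, the F1 beta and alpha genes had the highest levels of all members in the mutant mice. Atp5b, the catalytic beta subunit (chr10:128083273-128090391, forward strand), had 3246, 3484, 4141 and 4744 CPM in the control mice and 4305, 4902 and 5386 CPM in the mutant mice. The groups overlapped through control F2, which lay above mutant F1 and M1 (log2 fold change 0.33 ± 0.14, edgeR adjusted p = 0.0822). Atp5a1, the alpha subunit, had 2893, 3162, 3604 and 3582 CPM and then 3620, 3832 and 4335 CPM. Its groups were apart by a small margin, but the log2 fold change of 0.23 ± 0.12 was not called (edgeR adjusted p = 0.148). Atp5c1, the gamma subunit, had 0.25 ± 0.11 (edgeR adjusted p = 0.0957).

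Among the stalk and membrane subunits, Atp5j2 had 120, 149, 131 and 154 CPM in the control mice and 170, 199 and 276 CPM in the mutant mice, without overlap (log2 fold change 0.64 ± 0.14, edgeR adjusted p = 0.00454). Atp5f1, the b subunit of the peripheral stalk, had 257, 305, 315 and 342 CPM and then 377, 417 and 489 CPM (0.49 ± 0.11, edgeR adjusted p = 0.00445). Atp5k, the e subunit that helps the enzyme form dimers, had 144, 188, 189 and 194 CPM and then 202, 246 and 300 CPM (0.49 ± 0.12, edgeR adjusted p = 0.00739). Atp5j2 and Atp5f1 were called with the length trend removed, at 0.42 and 0.36, and Atp5k was not (0.19). For Atp5f1 23.2% of transcript windows occur in other genes.

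The c subunit is encoded by 3 genes whose mature proteins are the same. Atp5g3 had 334, 450, 493 and 550 CPM in the control mice and 590, 703 and 823 CPM in the mutant mice, without overlap (log2 fold change 0.60 ± 0.14, edgeR adjusted p = 0.00586, and 0.35 with the length trend removed). Atp5g1 had 17.7, 21.8, 23.2 and 28.3 CPM and then 23.5, 25.4 and 35.4 CPM (0.24 ± 0.15, edgeR adjusted p = 0.221), and Atp5g2 had 2 to 15 counts a library. The share of Atp5g3 among the reads of the 3 genes was 94.4% to 95.3% in the control mice and 95.8% to 96.6% in the mutant mice. Since 66.0% of the transcript windows of Atp5g1 and 100% of those of Atp5g2 occur in other genes, the levels of these 2 are uncertain. Atp5l, at 2 to 10 counts, has 68.5% of its windows in other genes.

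Single libraries moved the counts. The 44 members called higher became 28 without control M1, 32 without control F1 or without mutant M3, the library with high Rn45s, and 50 without control F2. All of those left without control M1, and without mutant M3, were among the 44. The count with a fold change over 1.5 was less firm: the 11 became 3 without mutant M3, 5 without control M1, 17 without mutant F1 and 20 without control F2. Each of the 44 had a positive log2 fold change in all fits that were made.

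Promoters of 69 of the 84 members were found by symbol in a RefSeq table (GRCm38.p6), as the 250 bases before each start annotated there. These starts can differ from those of GENCODE M21. The windows of Sdhb and Cox7a1 reach into the genes as GENCODE M21 places them, and the NRF1 core of Sdhb lies in that part. Motifs of factors known to act on these genes were searched on both strands. The core GCGCATGC bound by NRF1 occurred in 8 of the 69 genes (11.6%) and in 2.56% of 27025 genes with a promoter, the ETS motif CCGGAAG bound by GABPA in 12 (17.4%) and 7.83%, and the element AAGGTCA of oestrogen-related receptors in 5 (7.25%) and 4.70%. Motifs can occur in the same promoter, and promoters were not matched for base composition. The T-box element AGGTGTGA occurred in 0 of the 69 and in 1.3% of all genes. Of the 12 genes with the ETS motif 11 were tested and 8 were called higher. Of the 8 with the NRF1 core 6 were tested and 4 were called higher, and of the 5 with the element of oestrogen-related receptors 3 and 2. Over all members tested, 44 of 78 (56.4%) were called higher, and over all genes tested 16.3%. Whether a motif goes with the call was not tested.

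The promoters of 3 members called higher in both fits, and of Cox7a1, are shown for the motifs they hold, a choice made after their values were seen. Capitals mark the motif: the NRF1 core in Sdhb, the ETS motif in Sdhd and the element of oestrogen-related receptors in Atp5g3, each as it lies on the strand of the gene or in reverse complement. None of the 4 motifs was found in the window of Cox7a1.
Sdhb promoter, chr4:140961021-140961270, forward strand: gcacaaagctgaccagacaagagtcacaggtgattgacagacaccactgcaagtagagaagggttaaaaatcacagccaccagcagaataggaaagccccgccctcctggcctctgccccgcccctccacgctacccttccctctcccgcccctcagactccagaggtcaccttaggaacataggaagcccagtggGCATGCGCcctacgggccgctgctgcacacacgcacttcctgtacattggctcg
Sdhd promoter, chr9:50603850-50604099, reverse strand: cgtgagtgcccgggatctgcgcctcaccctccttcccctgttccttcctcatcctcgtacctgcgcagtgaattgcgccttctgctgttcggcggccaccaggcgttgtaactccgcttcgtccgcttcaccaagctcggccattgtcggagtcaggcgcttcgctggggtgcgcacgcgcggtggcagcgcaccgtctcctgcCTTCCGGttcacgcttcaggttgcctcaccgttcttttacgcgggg
Atp5g3 promoter, chr2:73911327-73911576, reverse strand: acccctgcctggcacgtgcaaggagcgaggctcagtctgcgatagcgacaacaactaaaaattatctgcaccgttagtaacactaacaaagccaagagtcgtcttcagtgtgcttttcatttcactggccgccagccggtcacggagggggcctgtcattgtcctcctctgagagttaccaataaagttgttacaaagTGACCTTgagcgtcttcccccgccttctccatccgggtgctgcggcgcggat
Cox7a1 promoter, chr7:30183921-30184170, forward strand: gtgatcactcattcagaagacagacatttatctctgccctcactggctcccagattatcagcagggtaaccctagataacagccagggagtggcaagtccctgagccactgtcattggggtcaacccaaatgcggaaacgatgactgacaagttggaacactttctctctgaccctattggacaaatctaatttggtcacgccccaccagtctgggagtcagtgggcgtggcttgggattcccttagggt

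Other genes of the pathway did not all move with the subunits. Of 13 TCA cycle genes, which supply NADH and succinate, 7 were called higher and 0 lower, in both fits, beside 16.3% and 15.0% of all genes tested in the first. Cs, citrate synthase, went from 580 ± 103 CPM (SD, n = 4) to 821 ± 41.2 CPM (SD, n = 6), a log2 fold change of 0.50 ± 0.12 (edgeR adjusted p = 0.00615), and Idh3b, of isocitrate dehydrogenase, had 0.47 ± 0.11. Of 18 genes of mitochondrial membranes and import 9 were called higher, among them Timm50 (0.53) and Tomm40 (0.52), which are parts of the protein import machinery. With the length trend removed these were 6 higher and 1 lower. Of 5 genes for cytochrome c and for subunits that the rule does not match, Cyc1 among them, 4 were called higher, and 2 with the length trend removed. Cycs, the mobile cytochrome c, was called higher in both fits (0.32 ± 0.09, edgeR adjusted p = 0.0124). Usmg5, a small ATP synthase subunit with few reads (4 to 21 counts), was called in the first fit (1.18 ± 0.42, edgeR adjusted p = 0.0459) and not with the length trend removed (adjusted p = 0.131 by the same test). Ndufab1, the acyl carrier protein of complex I, was not called, at −0.31 ± 0.18 (edgeR adjusted p = 0.21).

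Assembly factors, which build the complexes but are not part of them, had 5 of 30 tested genes called higher (16.7%), a share near that of all genes tested (16.3%), and 0 lower, with a median log2 fold change of 0.15. The 5 were Foxred1 of complex I (0.59), Sdhaf2 of complex II (0.36), Surf1 (0.56) and Cox18 (0.67) of complex IV and, in the list for complex V, Atpif1, the inhibitor of ATP hydrolysis, which had the largest change of these (55.1 ± 4.16 and 116 ± 24.5 CPM, log2 fold change 1.08 ± 0.14, edgeR adjusted p = 0.000114). All 5 were also called with the length trend removed. In that fit 6 of the 30 were called higher and 0 lower, with a median log2 fold change of 0.06. Beside them stood 20 of the 78 members (25.6%), with a median of 0.19, and 15.1% of all genes tested. The shares of the lists were not tested against each other.

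Transcriptional regulators of these genes moved both ways. Of 15 tested, 3 were called lower and 1 higher in each fit, beside 15.0% and 16.3% of all genes tested in the first; whether the regulators differ from all genes was not tested. Ppargc1a, the coactivator that drives mitochondrial gene expression, had a mean of 159 CPM in the control mice and 92.0 CPM in the mutant mice, without overlap of the groups (log2 fold change −0.79 ± 0.14, edgeR adjusted p = 0.00103). Esrrg, an oestrogen-related receptor, went from 50.6 ± 6.56 to 30.6 ± 3.31 CPM, also without overlap (−0.73 ± 0.11, edgeR adjusted p = 0.00031). Gabpa had −0.37 ± 0.11 and was called lower, while Ppargc1b, a relative of Ppargc1a, had 0.48 ± 0.15 and was called higher. Esrra (0.04), Nrf1 (−0.10) and Tfam (0.06), which maintains mitochondrial DNA, were not called. Among 11 genes for the expression and copying of mitochondrial DNA, Peo1, the helicase, (−0.41) and Mterfd2 (−0.37) were called lower and Mterfd1 (0.27) higher. These are 18.2% and 9.09% of the list, near or below the 15.0% and 16.3% of all genes tested. With the length trend removed 2 of the 11 were called lower and 0 higher.

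**Figure D5:**
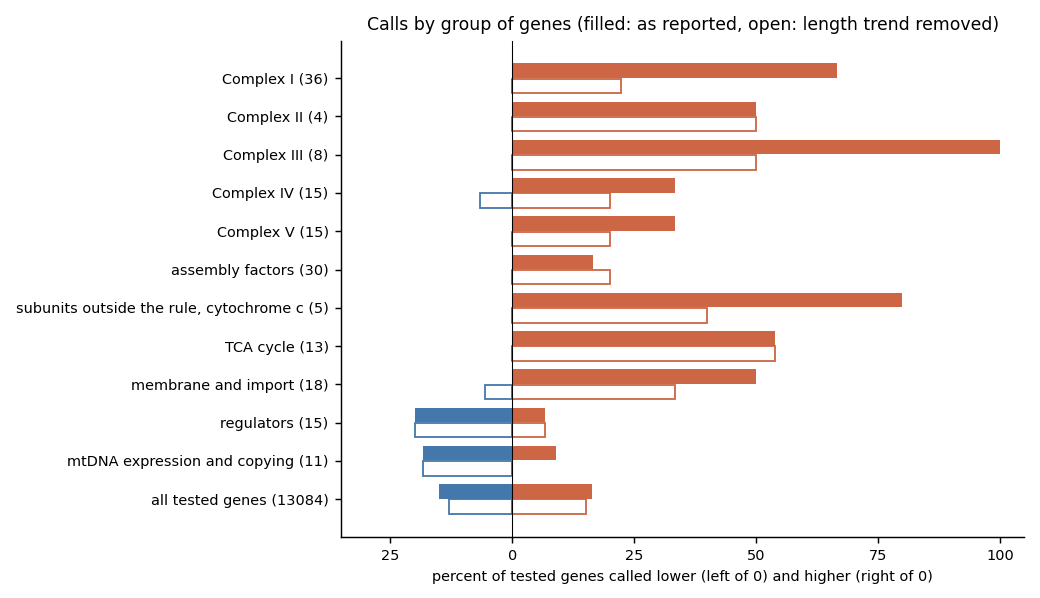
Percent of tested genes called lower (left of 0) and higher (right of 0) in each group of genes, with the number tested in brackets, filled for the fit as reported and open for the fit with the length trend removed. Complex III is at 100% higher in the first fit and 50.0% in the second, TCA cycle genes are at 53.8% in both, and of 15 regulators 3 are lower and 1 is higher in each fit.

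Markers of several cell types moved between the groups beside the subunits. Over all genes tested 16.3% were called higher and 15.0% lower, and whether a marker list differs from these shares was not tested. Of 10 cardiomyocyte markers 7 were called higher and 0 lower, and their summed level was 104310 to 159490 CPM in the control mice and 82248 to 150190 CPM in the mutant mice. Of 7 fibroblast markers 4 were called higher and 1 lower (sum 3857 to 5168 and 7040 to 10220 CPM), of 6 endothelial markers 2 were higher, of 4 smooth muscle markers 2 were higher, and all 4 tested leukocyte markers were higher (sum 164 to 235 and 276 to 375 CPM). Of 3 ventricular markers tested, Myl2 and Myl3 were called higher (log2 fold change 2.10 and 3.92) and the other was not called. The list summed to 41.1 to 62.8 CPM in the control mice and 609 to 848 CPM in the mutant mice. The ventricular factor Irx4 had at most 3 counts. In the control mice Myl7, the atrial light chain, had 6372 ± 970 CPM and in the mutant mice 960 ± 201 CPM. The markers of fat, skeletal muscle and blood summed to at most 43.1 CPM a list, and 4 globin genes of the blood list were at 0 in all libraries, as were Ndufs5 and the assembly factor Sco2. The protocol names a globin removal, and its part in the zeros was not tested. In bulk RNA, more cells of a type and more RNA per cell cannot be told apart, and the part of these markers in the change of the subunits was not tested.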

How the data were processed

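The authors deposited 1 gene table of 10 right atrial libraries. Per the processing notes it was made with FastQC, TopHat2 2.0.11, featureCounts and DESeq2 on mm10; the annotation and counting options are not given in the sources used here. Single-end reads of 50 or 51 bases came from an mRNA kit or from Ribo-Zero total RNA; the protocol names both. The table holds raw counts per gene, used here as deposited. It also holds a signal that the authors made by dividing counts by size factors, and their own comparison, a log2 fold change with its error, a test score, p-values and a fold ratio, as deposited. These were not used.

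The test was that of edgeR 4.0.16 (R 4.3.3): expression filter, TMM scaling, quasi-likelihood test of 4 control against 6 mutant libraries without covariates, Benjamini-Hochberg adjustment over 13084 genes, prior count 0.125. A gene was called at an adjusted p under 0.05, with a second rule of a fold change over 1.5 as well. For CPM, the library size over the genes that passed the filter was multiplied by the TMM factor. This factor was 0.645 in mutant M3 and 0.979 to 1.13 in the other libraries, so that CPM of M3 depend on it the most. SE was obtained by dividing the log2 fold change by the root of its F statistic. Libraries of a group are different mice by their labels; which were littermates or processed together is not given. No 2 libraries agreed within sampling noise (lowest chi-square per degree of freedom within a group 3.94).

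Transcript lengths are of the principal transcript in GENCODE M21 (GRCm38), found for 22868 genes and all members. For the length fit, a lowess curve (span 0.4) of each library's deviations on log length was entered as an offset. Shared sequence is the percent of 50-base windows of that transcript that occur in transcripts of other genes. A share of 3 counts, taken as the floor, is 4.23e-05% to 5.26e-05% of a library. Without molecular identifiers, such floors account for counting error only.

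On counts simulated from these libraries with 200 genes changed, edgeR recovered 197 at a fold of 2 among 12982 genes, 103 at a fold of 1.5 among 12983 and 2 at a fold of 1.3 among 12976. The changed genes were drawn from those with higher mean counts. In the data 4101 genes were called, which makes the adjusted p less strict than in the simulation. The recovered numbers therefore do not give the share of such folds found in the data. Alternatives were DESeq2 1.42.0 (test and size factors), upper-quartile scaling, other filters and prior counts, the sex label, the replicate block, the length and GC trends, no Rn45s, an adjusted p under 0.01 and each library left out. Length from the longest transcript, and sex read from Xist and Ddx3y, were added after the data were seen. The members and lists were chosen with earlier results of these data known. The genes named are, per complex, the 4 largest falls and rises among called members, all Sdh genes, isoform pairs, core subunits of complexes I and III, F1 alpha, beta and gamma, and the 2 largest called falls and rises of each other list with the main regulators (the marker lists are otherwise given by counts and sums); Ndufs5, Cox5b, Cox7b2, Cox7c, Cox8c, Atp5l, Atp5s, Atp5sl, Irx4, Xist, Ddx3y and Rn45s were added after their values were seen. The values of 1 of the genes this rule names are not reported here.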

Additional observations from a re-analysis of the deposited data

Results flagged for a closer look

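In 7 of 96 groups of values examined, 1 mouse stood apart from the rest of its group by Dixon's criterion, which chance alone gives in about 1 of 20 groups, or 4.8 of 96. In control M1 the levels of Atp5k (144 CPM, next 188) and Cox6c (280 CPM, next 340) were below those of the other control mice. In mutant M3, the levels of Sdhb (751 CPM, next 618) and Sdhc (432 CPM, next 366) were above those of the other mutant mice, and its share of Rn45s was 38.9% (next 0.582%). In mutant M1 Cox6a1 was low (49.4 CPM, next 68.8), and in mutant F1 Cox6b2 was low (0.158 CPM, which is 1 count). Without mutant M3, the log2 fold changes of Sdhb and Sdhc were 0.56 and 0.15.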

How the results depend on the processing

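The 44 members called higher became 40 to 51 under other scalings, filters and prior counts, the GC trend, the sex label or DESeq2. The sex label ran against Xist and Ddx3y in the control mice, so that fit does not adjust for sex there; with sex read from these genes, an alternative chosen after seeing the data, 51 members were called higher, the 44 among them, and 0 lower. An adjusted p under 0.01 left 20 members, 16 of the other pathway genes and 2198 of all genes. Removing the length trend left 21 members (20 higher, 1 lower, 0 past a fold of 1.5, median 0.187). With the longest transcript, chosen after seeing the data, these were 21, 20, 1 and 1, median 0.172. Replicate numbers did not pair the libraries (correlations of same-numbered deviations −0.047 to 0.0358). With the replicate block, 35 members, 3 past a fold of 1.5 and 21 other pathway genes were called. With the length trend removed as well, these were 10 members (9 higher, 1 lower, 0 past 1.5, median 0.173) and 18 other pathway genes. The labels F3 and M3 occur only in the mutant group, so that these libraries add nothing to the contrast in either fit. By Xist and Ddx3y, each label found in both groups joins mice of opposite sex. Of all genes, 3407 (13.4% higher, 12.6% lower) and 2992 (12.4% and 10.5%) were called in these fits, so that the 9 of 78 members called higher in the last were no larger a share than that of all genes. Leaving out 1 library at a time, members called ran from 28 to 50, those past 1.5 from 3 to 20, other pathway genes from 22 to 33, all genes from 3192 to 4336, and the median from 0.322 to 0.462.

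Tbx5 stayed higher in all fits. Of 40 named members 12 kept direction and side of the threshold throughout, and the sign changed only for uncalled ones. Without the length trend Atp5g1 was −0.036, Cox4i2 −0.19, Cox7a2 −0.043, Cox8a −0.26, Cox8b −0.21 and Ndufs7 −0.16. With the longest transcript Cox4i2 was −0.23, Cox7a2 −0.084, Cox8a −0.29, Cox8b −0.23, Ndufs7 −0.16 and Sdha −0.048. With the replicate block Cox4i2 was −0.00087, Cox8a −0.097 and Cox8b −0.0087, and with the length trend removed too Atp5g1 was −0.075, Cox4i2 −0.21, Cox7a2 −0.076, Cox8a −0.33, Cox8b −0.23 and Ndufs7 −0.20. Without the GC trend Cox8a was −0.014. Over left-out libraries Cox4i2 ran from −0.064 to 0.33, Cox7a1 from −0.16 to 0.070, Cox8a from −0.080 to 0.17, Cox8b from −0.0025 to 0.18, Ndufs7 from −0.020 to 0.20 and Sdha from −0.060 to 0.11. Causes were not tested. Cox7c, at 5 to 18 counts, has a large counting error, and the part of depth and of shared sequence in its low counts was not tested.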
